A study of Homo sapiens with 6 samples.

Results

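Methionine cycle genes were read from a table of RNA counts in HepG2 cells, a human line from a hepatocellular carcinoma. They are MAT1A, MAT2A, MAT2B, AHCY, AHCYL1, AHCYL2, GNMT, BHMT, CBS and CTH, and are 10 of the 34036 genes listed. They were chosen by symbol, with earlier results of these data known. The shares called and the ratio given below therefore describe a chosen set and are no independent support. The cells were transfected with a control siRNA (siCON) or with siRNA against DGUOK, the mitochondrial deoxyguanosine kinase (siDGk). RNA was taken at 48 h from 3 replicates of each kind, giving 6 libraries. The groups follow the sample titles, since the label for treatment gives the control siRNA for all 6. The totals over genes were 19065684, 18915508 and 10527216 counts in siCON libraries 1, 2 and 3, against 18613138, 15978314 and 21334876 counts in siDGk libraries 1, 2 and 3.

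The methionine cycle makes S-adenosylmethionine (SAM), the methyl donor of most cellular methylation, from methionine and ATP. Methyl transfer leaves S-adenosylhomocysteine, which is split to adenosine and homocysteine, and homocysteine is either methylated back to methionine or passed through cystathionine to cysteine. Adult hepatocytes make SAM mainly with the MAT1A product, whereas most other cells, and many liver tumours and dividing hepatocytes, use the MAT2A product, so that the balance of both genes is often read as a mark of the state of a liver cell.

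Levels are in CPM (counts relative to the TMM-scaled size of the library). Genes were compared with edgeR's quasi-likelihood test over the 14476 genes with enough counts, and a call needed a Benjamini-Hochberg adjusted p under 0.05 together with a log2 fold change above 0.5 in size. DGUOK, the gene targeted, was 54.4, 53.1 and 48.2 CPM in siCON libraries 1, 2 and 3, against 9.08, 10.5 and 6.72 CPM in siDGk libraries 1, 2 and 3, so that every library followed its title. Among the methionine cycle genes 8 of 10 were tested, while GNMT and BHMT had too few counts. MAT2A rose and MAT1A fell in siDGk cells, and these 2 of 8 were called. Over all genes tested 14.1% were called, 7.42% higher and 6.68% lower. The adjusted p alone was passed by 4 of 8, where 19.7% of all genes tested passed it, the additional genes being MAT2B and AHCY. For the same 4 genes no siDGk library fell within the siCON range, nor the reverse, which was the case for 36.0% of all genes tested. The median log2 fold change was 0.05 over the 8 genes and 0.02 over all genes tested.

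**Figure D1:**
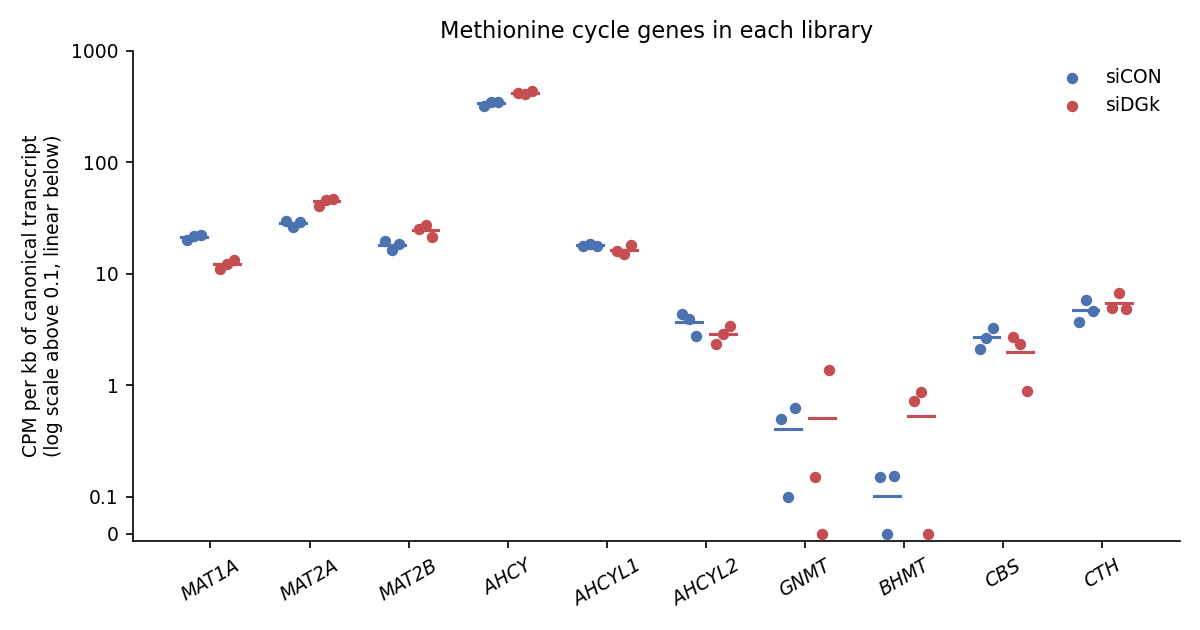
Level of each of the 10 methionine cycle genes in CPM per kilobase of canonical transcript (vertical axis, log scale above 0.1 and linear below), with 1 point per library and a line at the mean of each group of 3. The siDGk points lie below the siCON points for MAT1A and above them for MAT2A, MAT2B and AHCY, and the groups overlap for the other 6 genes.

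MAT1A (ENSG00000151224.12, chromosome 10 of GRCh38 from 80271820 to 80289658, minus strand) encodes the catalytic subunit of the liver forms of methionine adenosyltransferase, the enzyme that makes SAM. MAT2A (ENSG00000168906.12, chromosome 2 from 85539168 to 85545281, plus strand) encodes the catalytic subunit of the form found in most other tissues. Their promoters are shown because the 2 genes moved in opposite directions and differ in base composition, a choice made after the values were seen. RefSeq promoters of 300 bases on GRCh38.p14 were at hand for all 10 genes. The MAT1A promoter (chr10:80289609-80289908, minus strand) and the MAT2A promoter (chr2:85538918-85539217, plus strand) are written 5′ to 3′ with each CG in capitals.
MAT1A: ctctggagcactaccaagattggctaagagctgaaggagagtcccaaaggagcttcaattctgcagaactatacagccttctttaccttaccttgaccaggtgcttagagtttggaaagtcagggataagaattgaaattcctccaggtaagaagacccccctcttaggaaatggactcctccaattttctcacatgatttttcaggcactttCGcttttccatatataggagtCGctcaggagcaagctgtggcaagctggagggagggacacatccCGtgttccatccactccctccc
MAT2A: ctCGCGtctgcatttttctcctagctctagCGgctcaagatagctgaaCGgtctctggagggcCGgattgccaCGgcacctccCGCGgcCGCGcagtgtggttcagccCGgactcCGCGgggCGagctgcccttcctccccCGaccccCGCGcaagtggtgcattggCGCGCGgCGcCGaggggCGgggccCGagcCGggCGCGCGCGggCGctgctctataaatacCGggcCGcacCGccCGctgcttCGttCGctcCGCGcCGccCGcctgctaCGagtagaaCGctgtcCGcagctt
The MAT1A promoter holds 3 CG dinucleotides and the MAT2A promoter 43, where the median of 35116 RefSeq promoters of the same length is 14. CG reads the same on both strands. A count of 3 or fewer was found in 24.5% of these promoters and at least 43 in 4.98%. G and C make up 48% of the bases of the MAT1A promoter and 71% of those of MAT2A. The 6 other genes tested were not called. Of those with positive log2 fold changes, AHCY has promoters with 19, 24 and 39 CG, CTH with 26, and MAT2B with 1 and 30. AHCYL1, AHCYL2 and CBS, with negative ones, have promoters with 0 to 27, 0 to 29 and 4 to 50. Whether CG count follows direction was not tested.

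MAT1A was 68.3, 73.2 and 75.1 CPM in siCON libraries 1, 2 and 3, against 37.7, 41.8 and 45.2 CPM in siDGk libraries 1, 2 and 3. The highest siDGk library lay well under the lowest siCON library, and the spread within each group was small beside the gap between them. The means were 72.2 ± 3.53 and 41.6 ± 3.74 CPM (SD, n = 3), and the gene fell by 42.4% in the fit (log2 fold change −0.79, standard error 0.12, adjusted p = 1.25e-04 in edgeR). In bulk RNA, fewer cells that express a gene and less of its RNA per cell cannot be told apart. MAT1A has no exon in common with another gene in Gencode 44.

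MAT2A was 84.2, 74.5 and 82.2 CPM in siCON libraries 1, 2 and 3. In siDGk libraries 1, 2 and 3 it was 115, 130.1 and 131.4 CPM. All siDGk libraries were above all siCON libraries, and siDGk replicate 1 was the lowest of its group. From 80.3 ± 5.12 to 125.5 ± 9.12 CPM (SD, n = 3), MAT2A rose by 56.4% in the fit (log2 fold change 0.65, standard error 0.10, adjusted p = 1.34e-04 in edgeR). Both calls were made in every alternative tried, with log2 fold changes between −0.87 and −0.75 for MAT1A and between 0.59 and 0.69 for MAT2A.

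The RNA of MAT2A is known to carry hairpins in its 3′ UTR that are bound and methylated by METTL16, which ties its splicing and stability to the supply of SAM. The letters UACAGAGAA and UACAGAAAA were searched in the sense strand of the 3′ UTRs of canonical transcripts in Gencode 44. They are written below in capitals within their neighbouring bases, as RNA from 5′ to 3′, because they show how densely the MAT2A message carries them. In order from the stop codon, the windows lie on the plus strand at chr2:85543802-85543830, chr2:85544589-85544617, chr2:85544774-85544802, chr2:85544889-85544917, chr2:85545004-85545032 and chr2:85545112-85545140.
Match 1: uggcguaggcUACAGAGAAgccuucaagc
Match 2: ugugaugucaUACAGAGAAgucacagggc
Match 3: cugguguagcUACAGAGAAaccagcuucc
Match 4: auggcguaagUACAGAGAAgccaucaccu
Match 5: caagguguccUACAGAAAAaccuuggguu
Match 6: gcugguguggUACAGAGAAgccagcuugu
The 6 matches begin 40, 827, 1012, 1127, 1242 and 1350 bases after the stop codon, in a 3′ UTR of 1509 bases. Of 19550 human 3′ UTRs, 1.65% held UACAGAGAA, 2.88% held UACAGAAAA and 4.44% held either. Among these 3′ UTRs only that of MAT2A held more than 2 matches, and those of the other 9 methionine cycle genes held 0. A match is a description of the sequence, and binding was not measured.

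In Gencode 44 the last 562 exon bases of MAT2A, with 4 of the 6 matches, are also exon of GGCX on the opposite strand. The counting defaults ignore strand and leave out reads that overlap several genes. Reads within this stretch would count for neither gene if Gencode 27, used for the counts, holds the same overlap, which was not tested. GGCX, the vitamin K-dependent carboxylase gene, was 67.5 ± 6.97 CPM in siCON cells against 57.4 ± 4.91 CPM in siDGk cells (SD, n = 3), with an adjusted p of 0.218 in edgeR. Its groups overlapped, and its log2 fold change was −0.23. Reads of the shared stretch were not counted on their own, so their part in the MAT2A value was not tested.

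The ratio of MAT2A to MAT1A counts within a library depends on neither library size nor normalization. It was 1.23, 1.02 and 1.09 in siCON libraries 1, 2 and 3, against 3.05, 3.11 and 2.91 in siDGk libraries 1, 2 and 3. The counts of both genes were thus close to each other in every siCON library, whereas MAT2A had several times the counts of MAT1A in every siDGk library, and the groups did not overlap. The mean ratio was 1.12 ± 0.109 in siCON and 3.02 ± 0.104 in siDGk cells (SD, n = 3), 2.71 times as high. On the log2 scale the difference of the means was 1.44 (standard error 0.09). An exact permutation test, two-sided, gave p = 0.1, the smallest p that 3 against 3 libraries allow. The pair was chosen with earlier results of these data known, so this p is no independent support.

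**Figure D2:**
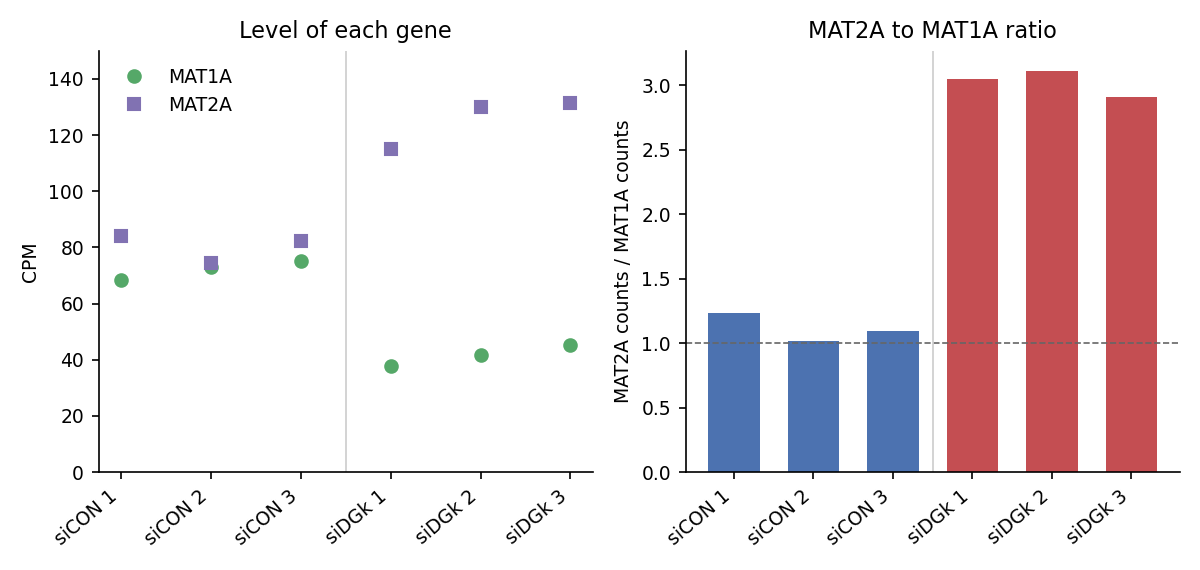
Left, level of MAT1A (circles) and MAT2A (squares) in CPM in each library; right, ratio of MAT2A counts to MAT1A counts in each library as bars from 0, with a dashed line at 1. The 3 siCON bars lie between 1.02 and 1.23 and the 3 siDGk bars between 2.91 and 3.11.

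Levels of different genes can be compared only per length. Per kilobase of canonical transcript (2817 bases for MAT2A and 3384 for MAT1A) the MAT2A to MAT1A ratio was 1.34 ± 0.131 in siCON and 3.63 ± 0.126 in siDGk cells (SD, n = 3). With the union of all annotated exons as the length (4485 and 3664 bases), a choice made after seeing the data, it was 0.911 ± 0.0891 and 2.47 ± 0.0853 (SD, n = 3). Which gene was the more abundant per length in siCON cells thus differed between these lengths, whereas in siDGk cells it was MAT2A by both. Both MAT2A lengths include the 562 bases shared with GGCX, where reads may count for neither gene. If such reads were not counted, leaving these bases out would raise the ratio, which was not done. Which gene led by the union of exons in siCON cells is therefore uncertain. Per kilobase of canonical transcript, the sum of both genes was 50.05, 48.1 and 51.4 CPM in siCON libraries 1, 2 and 3, against 51.98, 58.5 and 60.01 CPM in siDGk libraries 1, 2 and 3. The lowest siDGk sum was just above the highest siCON sum. With the union of exons the sums were 37.4, 36.6 and 38.8 CPM in siCON libraries 1, 2 and 3, against 35.9, 40.4 and 41.6 CPM in siDGk libraries 1, 2 and 3, and the groups overlapped, so whether the summed level differed depended on the length used. MAT1A supplied 42.8% ± 2.36 of the sum in siCON and 21.6% ± 0.590 in siDGk cells per kilobase of canonical transcript, and 52.4% ± 2.41 and 28.8% ± 0.715 with the union of exons (SD, n = 3). If reads in the bases shared with GGCX were not counted, leaving those bases out of the MAT2A lengths would lower these shares. Whether MAT1A was the larger part in siCON cells by the union of exons is therefore uncertain.

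MAT2B (ENSG00000038274.16, chromosome 5 from 163503114 to 163519558) encodes the regulatory subunit that binds the MAT2A product. It was 40.8, 33.99 and 38.5 CPM in siCON libraries 1, 2 and 3, against 51.9, 55.95 and 44.2 CPM in siDGk libraries 1, 2 and 3. All siDGk libraries lay above all siCON libraries, with siDGk replicate 3 nearest to them. On the log2 scale the difference in the fit was 0.42 (standard error 0.14, adjusted p = 0.0450 in edgeR), under the threshold for a call. Without siDGk replicate 3 it was 0.51 and the gene was called (adjusted p = 0.0289 in edgeR). Leaving out any other library, or using DESeq2, put the adjusted p above 0.05, and over all alternatives it ran up to 0.176. The ratio of MAT2B to MAT2A counts was 0.484, 0.456 and 0.469 in siCON libraries 1, 2 and 3, against 0.451, 0.43 and 0.336 in siDGk libraries 1, 2 and 3. The siDGk ratios were the lower ones, by a small margin except in siDGk replicate 3.

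AHCY (ENSG00000101444.12, chromosome 20 from 34280268 to 34311802) encodes the hydrolase that splits S-adenosylhomocysteine, the product and inhibitor of most methyltransferases. It was the most abundant of the 10 genes per kilobase in every library. Its level was 680.7, 746 and 749.7 CPM in siCON libraries 1, 2 and 3, against 899, 877.8 and 937 CPM in siDGk libraries 1, 2 and 3. The groups did not overlap, and the difference was modest, at 24.7% in the fit (log2 fold change 0.32, standard error 0.07, adjusted p = 0.00298 in edgeR), which is too small for a call. AHCYL1 and AHCYL2 encode relatives of this hydrolase that bind other proteins, among them the IP3 receptor, and AHCYL1 is not known to split S-adenosylhomocysteine. AHCYL1 (ENSG00000168710.17, chromosome 1 from 109984765 to 110023742) ran from 69.4 to 72.9 CPM in siCON and from 59.5 to 70.9 CPM in siDGk libraries. AHCYL2 (ENSG00000158467.16, chromosome 7 from 129225030 to 129430211) ran from 14.01 to 22.01 CPM in siCON and from 11.9 to 17.02 CPM in siDGk libraries. Both ranges overlapped, and the log2 fold changes of −0.13 (standard error 0.12) and −0.37 (standard error 0.23) did not pass the adjusted p. Leaving out 1 library moved that of AHCYL1 between −0.21 (no siDGk replicate 3) and −0.07 (no siDGk replicate 2), and that of AHCYL2 between −0.53 (no siCON replicate 3) and −0.23 (no siCON replicate 1).

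GNMT encodes glycine N-methyltransferase, an abundant liver enzyme that uses up excess SAM, and BHMT encodes the liver enzyme that remethylates homocysteine with betaine. GNMT (ENSG00000124713.5, chromosome 6 from 42960754 to 42963880) had 10, 2 and 7 counts in siCON libraries 1, 2 and 3, against 3, 0 and 32 counts in siDGk libraries 1, 2 and 3. BHMT (ENSG00000145692.14, chromosome 5 from 79111809 to 79132288) had 7, 0 and 4 counts in siCON libraries 1, 2 and 3, against 33, 35 and 0 counts in siDGk libraries 1, 2 and 3. Both genes were thus near the floor in HepG2 cells, with 1 or 2 siDGk libraries above the others and a siDGk library at 0. Neither gene was tested, and replicates of the siDGk group disagreed. Both genes share exon bases with a gene on the other strand, GNMT with PEX6 and BHMT with DMGDH, so that even these counts are uncertain.

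CBS and CTH encode the enzymes of transsulfuration, cystathionine beta-synthase and cystathionine gamma-lyase, which lead homocysteine to cysteine. CBS (ENSG00000160200.17, chromosome 21 from 43053191 to 43076943) was 5.23, 6.66 and 8.20 CPM in siCON libraries 1, 2 and 3, against 6.70, 5.91 and 2.21 CPM in siDGk libraries 1, 2 and 3. The groups overlapped and siDGk replicate 3 was the lowest library; the log2 fold change was −0.44 with a standard error of 0.42 (adjusted p = 0.554 in edgeR), and −0.09 without that library, in a range of −0.74 to −0.09 over the fits without 1 library. CBS has a near-identical copy, CBSL, which had 12 counts in siDGk replicate 2 and 0 elsewhere, and reads that align to both are left out by the counting defaults, so its level is uncertain. CTH (ENSG00000116761.11, chromosome 1 from 70411218 to 70439851) was 7.64, 12.1 and 9.63 CPM in siCON libraries 1, 2 and 3, against 10.3, 13.9 and 10.2 CPM in siDGk libraries 1, 2 and 3. Its groups overlapped too, and its log2 fold change of 0.23 (standard error 0.28) did not pass. Without 1 library it ran from 0.07, when siCON replicate 1 or siDGk replicate 2 was left out, to 0.41, when siCON replicate 2 was.

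**Figure D3:**
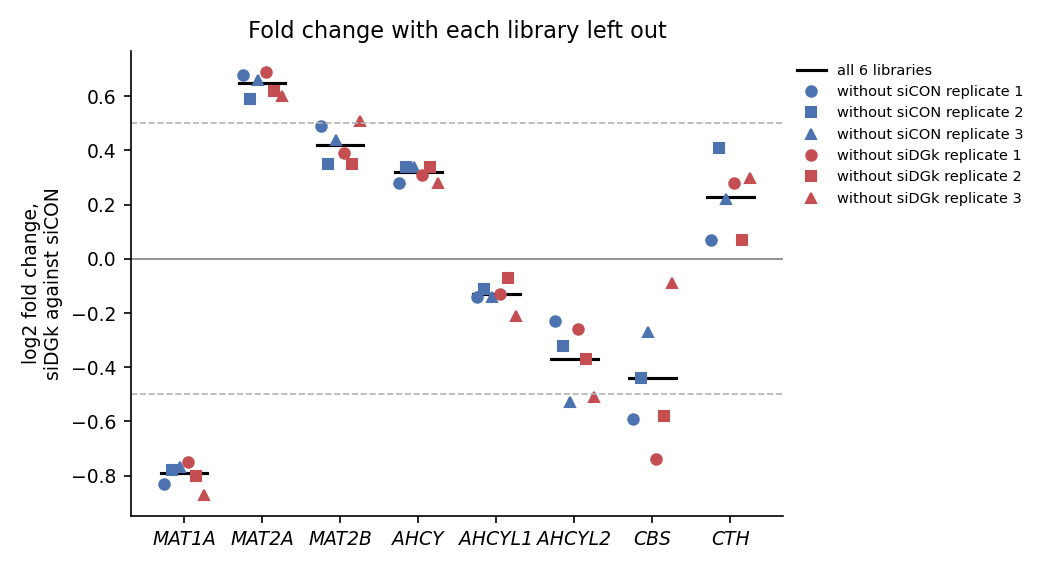
Log2 fold change of siDGk against siCON (vertical axis) for the 8 methionine cycle genes tested, with all libraries (black line) and without each library in turn (points; blue without a siCON library, red without a siDGk library); dashed lines mark the threshold of 0.5 in either direction. MAT1A and MAT2A stay past the threshold in all fits, MAT2B reaches 0.51 in 1 fit, AHCYL2 reaches −0.53 and −0.51 in 2 fits without being called, and CBS moves between −0.74 and −0.09.

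Per kilobase of canonical transcript, the siCON means of the 8 genes tested fell in the order AHCY (337 ± 18.1 CPM), MAT2A (28.5 ± 1.82), MAT1A (21.3 ± 1.04), MAT2B (18.3 ± 1.67), AHCYL1 (17.9 ± 0.477), CTH (4.68 ± 1.07), AHCYL2 (3.70 ± 0.823) and CBS (2.68 ± 0.594), each as mean ± SD over n = 3. MAT2B and AHCYL1, CTH and AHCYL2, and AHCYL2 and CBS were neighbours whose levels overlapped between libraries. In siDGk cells the order was AHCY (421 ± 13.9 CPM), MAT2A (44.6 ± 3.24), MAT2B (24.6 ± 2.89), AHCYL1 (16.4 ± 1.48), MAT1A (12.3 ± 1.10), CTH (5.49 ± 1.01), AHCYL2 (2.87 ± 0.509) and CBS (1.98 ± 0.961), again over n = 3. AHCYL2 and CBS were the neighbours that overlapped here. With these lengths, MAT1A ranked above MAT2B and AHCYL1 in siCON cells and below both in siDGk cells. With the union of exons, an order read after seeing the data, MAT1A stayed above MAT2B in both groups (19.7 against 4.34 CPM per kilobase in siCON and 11.3 against 5.83 in siDGk cells), whereas its mean went from above that of MAT2A (17.9, with overlapping libraries) to below it (27.99). If reads in the 562 bases shared with GGCX were not counted, leaving those bases out of its length would raise the MAT2A means. The siCON order of MAT1A and MAT2A by this length is therefore uncertain. AHCYL1 (14.05 and 12.8) was under MAT1A in siCON cells and had the higher mean in siDGk cells, where the libraries of both genes overlapped.

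Around the cycle, 51 genes in 6 lists were read from the same fit. Of the 49 tested, 6 were called in edgeR, 2 higher and 4 lower, a share of 12.2% that is close to that of all genes. The adjusted p alone was passed by 11 (22.4%, where 19.7% of all genes tested passed). Groups without overlap were seen for 26 (53.1%, where 36.0% of all genes tested had them), and the median log2 fold change was −0.02. Whether these shares differ from those of all genes was not tested. The counts called in single lists below stand beside 14.1% of all genes tested, 7.42% higher and 6.68% lower.

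Of 12 genes of remethylation and the folate cycle, which carries the methyl group that turns homocysteine into methionine, 1 was called higher and 1 lower. MTHFD1L, the mitochondrial synthase that releases formate, rose from 62.8 ± 5.84 to 95.7 ± 6.10 CPM (SD, n = 3; log2 fold change 0.61, standard error 0.11). MTHFD2 and SHMT2, mitochondrial enzymes of the same branch with the highest mean CPM of the list among those not called, passed the adjusted p with log2 fold changes of 0.39 and 0.24. Over all alternatives the adjusted p of SHMT2 ran from 0.0298 to 0.233 in edgeR and DESeq2. MTR, the methionine synthase, was 31.2 ± 0.733 CPM in siCON cells against 30.2 ± 2.41 CPM in siDGk cells (SD, n = 3), which is no more than the replicates differ among themselves; it is named here for its role, after its values were seen.

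Of 4 genes of choline and betaine breakdown 1 was called, where 14.1% of all genes tested were. The median log2 fold change was −0.35, against 0.02 over all genes tested. SARDH, the mitochondrial sarcosine dehydrogenase, fell from 50.8 ± 4.24 to 20.1 ± 2.87 CPM (SD, n = 3; log2 fold change −1.34, standard error 0.16, adjusted p = 7.26e-06 in edgeR). Sarcosine is also the product of GNMT. CHDH, which starts the making of betaine from choline, did not pass (log2 fold change −0.27, standard error 0.10). ALDH7A1, an aldehyde dehydrogenase that can complete it, passed the adjusted p but was not called (log2 fold change −0.44, standard error 0.12, adjusted p = 0.0126 in edgeR). Without siDGk replicate 3 the log2 fold change was −0.55 and the gene was called (adjusted p = 0.00382 in edgeR), and the adjusted p ran up to 0.0579 over all alternatives.

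Of 10 genes downstream of transsulfuration, which make glutathione or oxidise sulfur, 0 were called in edgeR and 0 in DESeq2; 3 had an unadjusted p under 0.05, as did 30.6% of all genes tested. The 2 with the highest mean CPM over the 6 libraries, without scaling by length, were MPST (log2 fold change 0.12) and GCLC (0.16), a sulfurtransferase and the catalytic subunit of the first enzyme of glutathione synthesis. Without 1 library MPST ran from 0.03 (siCON replicate 3 or siDGk replicate 1 left out) to 0.25 (siCON replicate 2 left out). Of 10 genes of methionine salvage and polyamine synthesis, which spend SAM and recover its sulfur, 1 was called higher and 1 lower. ADI1, the dioxygenase of the salvage pathway, fell from 104.5 ± 5.53 to 62.8 ± 4.41 CPM (SD, n = 3; log2 fold change −0.73, standard error 0.11). MRI1, the isomerase that acts earlier in it, rose from 20.7 ± 3.56 to 31.7 ± 3.83 CPM (SD, n = 3; log2 fold change 0.62, standard error 0.18, adjusted p = 0.0232 in edgeR). The call of MRI1 was lost when siCON replicate 1 (0.53), or 2 (0.57), or siDGk replicate 2 (0.52) was left out, with adjusted p of 0.0127 to 0.104 in edgeR and DESeq2 over all alternatives. ODC1, which makes putrescine, passed the adjusted p with a log2 fold change of 0.40, and GOT1, an aminotransferase, did not, with 0.21, which was 0.13 without siCON replicate 1 or siDGk replicate 3 and 0.32 without siCON replicate 2.

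**Figure D4:**
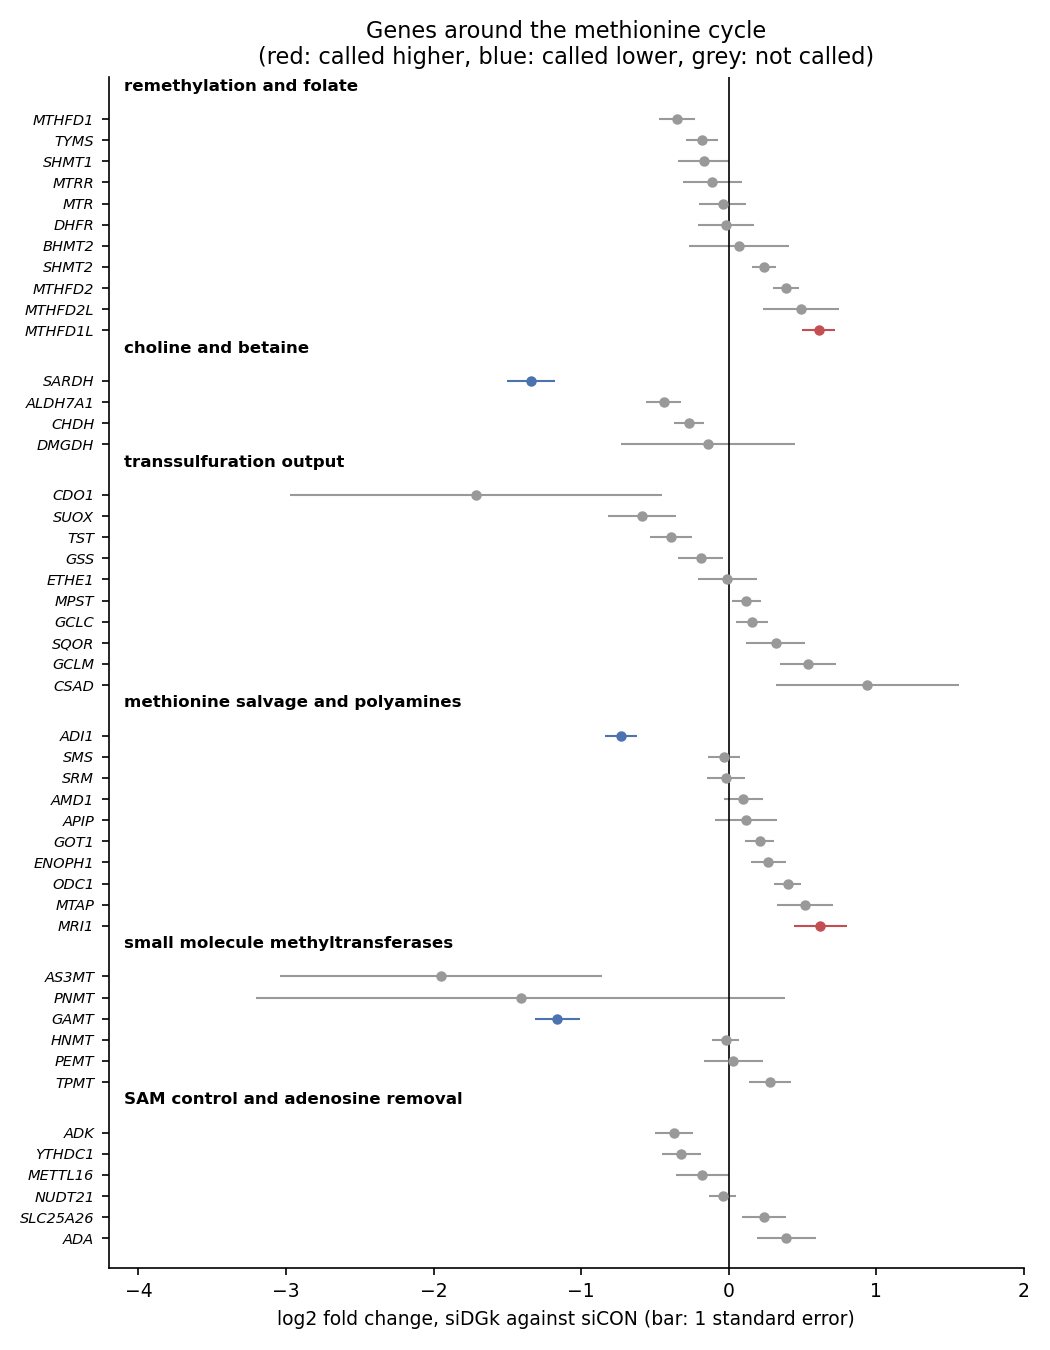
Log2 fold change of siDGk against siCON (horizontal axis, bars of 1 standard error) for 47 of the 49 tested genes of the 6 lists, grouped by list; red points were called higher, blue points lower and grey points were not called. The 5 coloured genes are MTHFD1L, SARDH, ADI1, MRI1 and GAMT.

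Of 9 methyltransferases that use SAM on small molecules 7 were tested and 1 was called. GAMT, which makes creatine and is among the large users of SAM in liver, fell from 76.2 ± 1.70 to 34.2 ± 6.77 CPM (SD, n = 3; log2 fold change −1.16, standard error 0.15, adjusted p = 1.15e-05 in edgeR). HNMT, which methylates histamine, had a log2 fold change of −0.02 and did not pass. NNMT and INMT had too few counts to be tested, with at most 27 counts in any library. Among 6 genes of SAM control and adenosine removal 0 were called in edgeR and 0 in DESeq2, and 2 had an unadjusted p under 0.05, where the share over all genes tested is again 30.6%. METTL16 ran from 25.9 to 33.6 CPM in siCON and from 21 to 30.7 CPM in siDGk libraries, which overlapped; it is named for its link with MAT2A, after its values were seen. NUDT21 and YTHDC1, which act in 3′ end processing and in reading methylated RNA, had log2 fold changes of −0.04 and −0.32 and did not pass; that of NUDT21 ran from −0.09 to 0.00 without 1 library. ADK, the kinase that removes adenosine, was the 1 gene of the list to pass the adjusted p and was named after its values were seen (log2 fold change −0.37, adjusted p = 0.0481 in edgeR). It also passed with RLE or upper-quartile normalization and with the mean CPM filter, and not with the block, DESeq2, no count filter or any library left out, with adjusted p between 0.0310 and 0.155 in edgeR and DESeq2.

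Markers of hepatocytes and HepG2 cells moved with MAT1A. All 7 (ALB, APOA1, TTR, TF, FGB, HNF4A and AFP) were present in every library and all 7 were called lower in siDGk cells. Over all genes tested 6.68% were called lower. Their summed level was 40417, 36115 and 35534 CPM in siCON libraries 1, 2 and 3, led by ALB, and 17722, 15311 and 13272 CPM in siDGk libraries 1, 2 and 3, led by TF. Every siDGk sum lay far under every siCON sum. The log2 fold changes were −1.90 for FGB, −1.61 for TTR, −1.58 for ALB, −1.41 for AFP, −1.05 for APOA1, −0.95 for TF and −0.51 for HNF4A, so that MAT1A, at −0.79, fell less than 6 of the 7. HNF4A was −0.46 without siCON replicate 1 and −0.47 without siDGk replicate 3, and was then not called.

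Of 8 markers of other cell types, 7 were tested and 2 were called, both higher, where 7.42% of all genes tested were called higher. KRT19, a keratin gene of bile duct cells, had the highest CPM of them in every library and rose from 893 ± 139 to 2539 ± 229 CPM (SD, n = 3). COL1A1, a collagen gene, rose from 1.17 ± 0.752 to 19.4 ± 1.75 CPM (SD, n = 3). The summed level of the 8 was 736.5, 975 and 981 CPM in siCON libraries 1, 2 and 3, against 2337, 2606 and 2787 CPM in siDGk libraries 1, 2 and 3. Nearly all of each sum was KRT19, for example 732.7 CPM in siCON library 1 and 2305 CPM in siDGk library 1. DES was at 0 in 5 of 6 libraries, COL1A2 in siCON replicates 2 and 3 and siDGk replicate 3, PECAM1 in siCON replicate 2 and CD68 in siCON replicate 3. PTPRC and KRT7 were not at 0 in any library. In siDGk replicate 2, PECAM1 was 15.9 CPM and PTPRC 7.94 CPM, against at most 2.81 and 2.93 CPM in any other library, and COL1A2 was highest there too, at 10.4 CPM. All 7 tested had positive log2 fold changes, as had 7450 of the 14476 genes tested, with a median of 1.76, and 5 of the 7 did not pass the adjusted p. The part of these marker changes in the MAT1A and MAT2A results was not tested.

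The genes most like each of the pair were taken by Pearson correlation of log2 CPM (with 0.5 added) over the 6 libraries, among 9225 other tested genes whose mean reached 10 CPM. With 2 groups of 3 libraries, such a correlation mostly follows the difference between siCON and siDGk cells, and it is given as a description. For MAT1A they were FDPS (r = 0.998), PDIA4 (0.997), ANKS4B (0.997), CALR (0.996) and ECHS1 (0.996). FDPS, the farnesyl diphosphate synthase, had means of 428.9 CPM in siCON cells against 280.4 CPM in siDGk cells, and all 5 had negative log2 fold changes, from −0.85 for ANKS4B to −0.48 for PDIA4. PDIA4 passed the fold change threshold and was called only without siCON replicate 1 (−0.51) or siDGk replicate 3 (−0.54). Among the 5 of MAT2A were CORO1C (r = 0.995), DAB2 (0.995), NES (0.995) and HARS2 (0.994). DAB2, an endocytic adaptor gene, had means of 21.8 CPM in siCON cells against 66.2 CPM in siDGk cells, and the 5 log2 fold changes ran from 0.42 for CORO1C to 1.61 for DAB2. No other methionine cycle gene was among the 5 nearest of either, which says little with 5 places among 9225 genes. GNMT and BHMT, not tested, and CBS, under a mean of 10 CPM, could not be among them.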

How the data were processed

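HepG2 RNA of 3 siCON and 3 siDGk replicates was analysed from a deposited table of raw counts per gene. Per the study's methods, the authors filtered paired-end reads, aligned them to GRCh38 in STAR 2.6.1 and made the counts with featureCounts 1.6.5 on Gencode 27, at defaults that are blind to strand and drop reads aligned to several places or genes. In R 4.3.3, genes were filtered by filterByExpr of edgeR 4.0.16 (minimum count 10), normalized by TMM and compared by a robust quasi-likelihood test of condition alone, with Benjamini-Hochberg adjustment over all genes tested. Standard errors were obtained by dividing each log2 fold change by the root of its F statistic. Lengths, positions and 3′ UTRs came from Gencode 44 and promoters from RefSeq. Replicates of a group differed by more than sampling noise, with a chi-square of 10.9 to 27.2 per degree of freedom. Named genes are the 10 members, DGUOK, all called genes of each list with up to 2 of its others with the highest mean CPM, and the 5 best correlated genes; a few that this rule covers are counted but not reported here. Members and lists were chosen with earlier results of these data known. Alternatives were DESeq2 1.42.0 with and without shrinkage, RLE and upper-quartile normalization, other count filters, no fold change threshold, a replicate block and each library left out. Scripts were tested on simulated data.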

Additional observations from a re-analysis of the deposited data

How the results depend on the processing

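The calls of MAT1A and MAT2A were made in every alternative tried. Dropping the fold change threshold moved the methionine cycle genes called from 2 to 4 and the pathway genes called from 6 to 11, since it admits genes with smaller changes, and gave 2847 calls over all genes in place of 2041. Without each library in turn, the numbers called ran from 1704 to 1935 over all genes, from 2 to 3 for the methionine cycle and from 5 to 8 for the pathway lists. The log2 difference of the MAT2A to MAT1A ratio ran from 1.38 to 1.52, where the exact permutation p, 2 times the one-sided p, was 0.2, the smallest 2 against 3 libraries allow; it was 1.44 with a pseudocount of 0.5 and as the difference of both edgeR log2 fold changes. HNMT and MTR, near 0 with all libraries, changed sign when 1 library was left out, with log2 fold changes of −0.08 to 0.04 and −0.11 to 0.01; the cause was not tested.

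With replicate number as a block, 2077 genes, 2 methionine cycle genes and 7 pathway genes were called, and the ratio differed by 1.44 (exact sign-flip permutation p = 0.25, the smallest that 3 pairs allow). The numbers gave no pairing: after group means were removed, the correlation across genes of same-numbered libraries was 0.024, 0.017 and −0.0022. CBS and CBSL counts summed, an alternative chosen after seeing the data, gave a CBS log2 fold change of −0.37. The mean CPM filter removed CBS. Groups of 3 libraries, low counts of GNMT and BHMT, and counting without strand limit these results.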
